A study of Mus musculus with 16 samples.

Results

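The binding of Foxn3, Foxn4 and Rfx3 was examined at 9 genes that direct newborn retinal cells towards the photoreceptor or the ganglion cell fate, in the embryonic mouse retina. The genes were chosen by name: Otx2, Crx, Nrl, Thrb and Prdm1 for photoreceptors, and Atoh7, Pou4f2, Isl1 and Neurog2 for ganglion cells. They are 9 of 21887 protein-coding genes in the RefSeq table used. A peak was assigned to a gene where it overlapped the gene body or the 50 kb on either side of it, and 8 peaks met this rule. The data came from CUT&RUN, in which an antibody guides micrococcal nuclease to a DNA-bound protein so that the DNA beside it is released and sequenced. All 16 libraries were made from retinas of CD-1 mice, an outbred stock, at embryonic day 16, with about 300000 dissociated cells from pooled retinas in each. Antibodies to Foxn3 gave 4 libraries in 2 experiments, and antibodies to Foxn4 and Rfx3 gave 2 each. Rabbit IgG served as the control for Foxn3 (4 libraries) and for Rfx3 (2 libraries), and mouse IgG for Foxn4 (2 libraries). Nuclease digestion took 1 h for Foxn3, Rfx3 and rabbit IgG and about 12 h for Foxn4 and mouse IgG, so the Foxn4 antibody and its protocol cannot be told apart in any comparison below. Each antibody has 1 deposited peak list, with 2794 peaks for Foxn3, 2956 for Foxn4 and 3981 for Rfx3. There are no lists of single libraries, so no value has a spread between replicates, no test was made, and read depth is unknown. The cell types in the tissue could not be checked against markers, because peak lists hold no expression values.

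The retina makes its neurons from shared progenitors in an overlapping order, with ganglion cells among the earliest and rods later, and cones, horizontal and amacrine cells in between. Transcription factors set the choice: Atoh7 gives progenitors the competence to become ganglion cells, and Otx2 starts the photoreceptor programme. Foxn4 is a forkhead factor of progenitors that is required for horizontal cells and most amacrine cells. Foxn3 is a forkhead protein known mainly as a repressor, and Rfx3 is a member of the RFX family, which binds the X-box in promoters of ciliary genes.

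The fate gene with peaks of more than 1 factor was Neurog2, and they met directly upstream of its listed start site. The RefSeq promoter window of Neurog2 (GRCm38.p6, chr3:127632886-127633185, plus strand) is shown because it was the single promoter window, among 13 listed for the 9 genes, that a peak reached. It runs from 250 bases before to 50 bases from the start site at 127633136. Capitals mark the 112 bases that lay within both the Foxn4 and the Rfx3 peak, and the first 221 bases lay within the Rfx3 peak.
Neurog2: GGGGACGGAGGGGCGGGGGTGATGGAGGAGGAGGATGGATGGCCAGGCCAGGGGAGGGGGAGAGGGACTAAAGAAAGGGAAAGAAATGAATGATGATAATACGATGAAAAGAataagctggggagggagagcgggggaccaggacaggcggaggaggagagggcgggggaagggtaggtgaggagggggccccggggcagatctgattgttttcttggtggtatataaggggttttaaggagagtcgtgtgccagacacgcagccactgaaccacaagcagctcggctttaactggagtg

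Across the 9 genes, Foxn4 was the factor found at most loci and Foxn3 was found at none. Foxn4 peaks lay at Otx2, Crx, Thrb, Atoh7 and Neurog2, 1 peak at each. Rfx3 peaks lay at Nrl (1 peak) and Neurog2 (2 peaks). Prdm1, Pou4f2 and Isl1 had no peak of any list. Photoreceptor genes thus held 3 Foxn4 peaks and 1 Rfx3 peak, and ganglion cell genes 2 of each. The latter count rests mostly on Neurog2, a factor of progenitors placed here with the ganglion cell genes. Apart from it, the ganglion cell genes held 1 Foxn4 peak, at Atoh7, and no Rfx3 peak.

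These counts were read against all 21887 protein-coding genes with the same window. A Foxn4 peak lay in the window of 5 of 9 fate genes (55.6%, exact Clopper-Pearson 95% interval 21.2% to 86.3%), against 19.9% of all genes. The lower bound of that interval and the background were close together. An Rfx3 peak lay at 2 of 9 (22.2%, 2.81% to 60.0%), against 33.0% of all genes. Foxn3 was found at 0 of 9 genes against a background of 27.4%. A count of 0 among 9 still permits a share as high as 33.3%, so a deficit of Foxn3 below that background was not detectable with 9 genes. The intervals cover counting error only, and genes are not replicates.

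With the 50 kb window, Foxn4 without the other lists was seen at 4 of the 9 genes, Otx2, Crx, Thrb and Atoh7, against 4.4% of all genes. With 10 kb it was seen at 2, Crx and Thrb, and 5 genes had no peak. Among all genes with a Foxn4 peak in their window, 77.8% also had a peak of Foxn3 or Rfx3 there; among the 5 fate genes with a Foxn4 peak this held for Neurog2. Rfx3 without the other lists was seen at Nrl, against 6.94% of all genes, and Foxn4 with Rfx3 but no Foxn3 at Neurog2, against 1.72%. No peak of any list was seen at 3 genes, against 59.6% of all genes, and a peak of some list at 6, against 40.4%. Peaks of 2 or more lists were seen at 1, against 27.3%.

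Fewer of the Foxn4 peaks lay close to the genes. Within 10 kb, Foxn4 was found at 3 of 9 genes (Crx, Thrb and Neurog2; background 10.5%), Rfx3 at 2 (19.2%) and Foxn3 at 0 (15.3%). A peak overlapped the gene body itself for Foxn4 at 2 genes, Thrb and Neurog2 (6.86%). For Rfx3 this held at 2, Nrl and Neurog2 (13.6%), and for Foxn3 at 0 (10.4%). These peaks at Nrl and Neurog2 reached past an end of the body, and that at Thrb lay wholly inside it. Within 100 kb, Foxn4 was found at 6 (29.1%), Rfx3 at 3 (43.7%) and Foxn3 at 1, Atoh7 (37.3%). Atoh7 and Otx2 therefore depend on the window for their Foxn4 peaks, and Isl1 gains one.

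**Figure D1:**
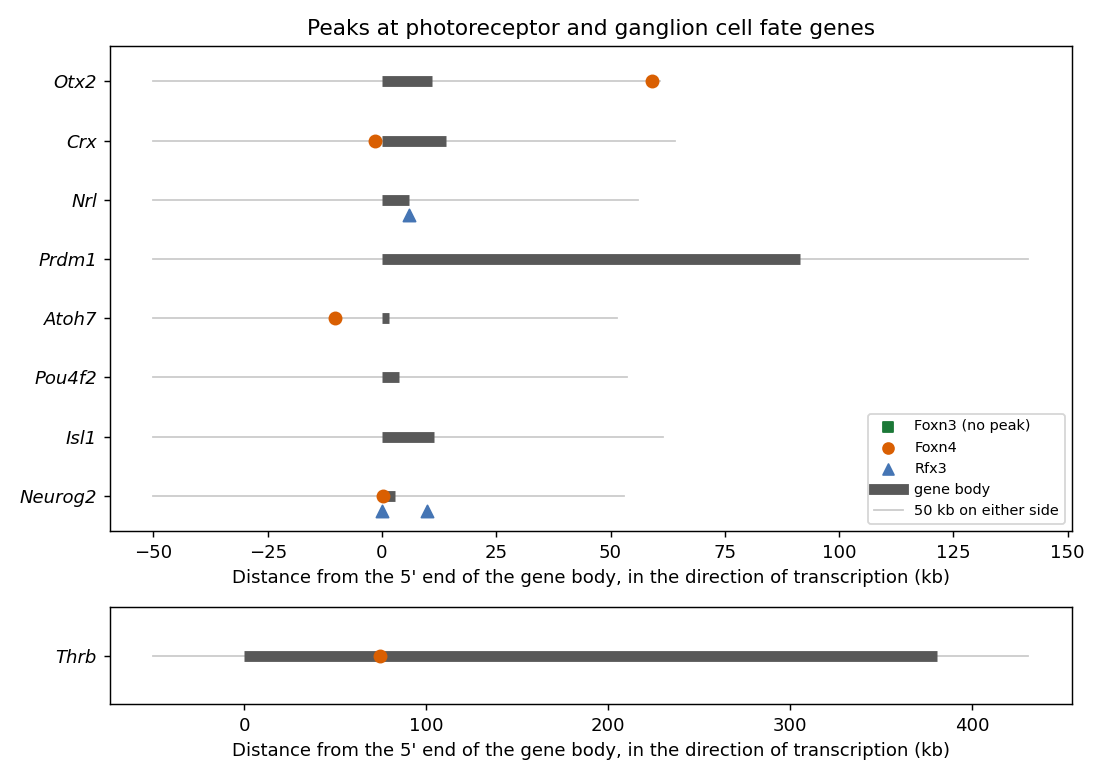
Peaks at the 9 fate genes, drawn by distance from the 5' end of the gene body in the direction of transcription (kb), with Thrb on its own axis because its body is 381 kb long. Dark bars are gene bodies, thin lines the 50 kb on either side, circles the midpoints of Foxn4 peaks and triangles those of Rfx3 peaks; only Neurog2 has both, and no square for Foxn3 appears.

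Of the photoreceptor genes, Otx2 encodes the homeodomain factor that starts the photoreceptor programme, and it acts upstream of Crx. Its gene body lies at chr14:48656781-48667644 on the minus strand. The Foxn4 peak at chr14:48608376-48608991 was the widest of the 8, at 616 bp, and lay 47790 bp beyond the 3' end of the gene, just inside the 50 kb limit. The body of the next protein-coding gene, Tmem260, was nearly as close, 48193 bp from the peak. Distance to the gene bodies therefore does not tie the peak to Otx2. The nearest listed start of Tmem260 was 162024 bp from the peak, and that of Otx2 53743 bp. No annotated gene overlapped the peak. The nearest Foxn3 peak was 2320 kb from it and the nearest Rfx3 peak 162 kb.

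Crx, the homeodomain factor that drives genes of differentiating photoreceptors, lies at chr7:15865947-15879955 on the minus strand. Its Foxn4 peak, at chr7:15881453-15881724 (272 bp), was 1498 bp upstream of the listed start site. This space is shared with Crxos, which is transcribed in the opposite direction and whose listed start was 893 bp from the peak, so Crxos was the nearer gene. Peaks of Foxn3 and Rfx3 lay 216 and 171 kb away.

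Nrl, the leucine zipper factor that sets the rod fate, lies at chr14:55518978-55524981 on the minus strand. Its Rfx3 peak, at chr14:55518864-55519358 (495 bp), spanned the 3' end of the gene and lay 4894 bp from the listed start site. The neighbouring gene Cpne6 was 1429 bp away. Of the 8 peaks it had the highest percentile within its own list, and the nearest Foxn3 and Foxn4 peaks were 116 and 152 kb from it.

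Thrb encodes a thyroid hormone receptor that is needed for cones with the medium-wavelength opsin. The gene is long, at chr14:17659225-18040097 on the plus strand. Its Foxn4 peak, at chr14:17733732-17734128 (397 bp), lay inside the gene body, with its midpoint 73.0 kb downstream of the nearer of 2 listed start sites. Whether that position is exonic or intronic was not examined, because the gene table used gives no exons. With a window of 481 kb, Thrb had 0.208 Foxn4 peaks per 100 kb, near the mean of 0.204 over the windows of all genes. The other 4 genes with a Foxn4 peak had 0.877 to 0.985 per 100 kb. Each of them holds 1 Foxn4 peak in a window of 101 to 114 kb, so these values follow from the window length. They belong to genes picked for having a peak and are not comparable with that mean. Over the 9 windows together the density was 0.351 Foxn4 peaks per 100 kb. Prdm1, a zinc finger repressor that helps photoreceptor precursors avoid the bipolar fate, had no peak although its window was the second longest, at 191 kb (gene body chr10:44437174-44528558).

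Of the ganglion cell genes, Atoh7, the bHLH factor required for most ganglion cells, had a peak of Foxn4 outside the gene. The gene is short, at chr10:63099785-63101280 on the plus strand. The Foxn4 peak, at chr10:63089275-63089715 (441 bp), lay 10070 bp upstream of the listed start site. Atoh7 was its nearest protein-coding gene. The body of Pbld1 was 11311 bp away on the other side, and the nearest listed start of Pbld1 27686 bp. The nearest Foxn3 and Rfx3 peaks were each 64.9 kb from the Foxn4 peak.

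Neurog2, a proneural bHLH factor of progenitors that are leaving the cell cycle, lies at chr3:127632733-127635636 on the plus strand. The Foxn4 peak, at chr3:127632710-127632997 (288 bp), ended 139 bp before the listed start site. The Rfx3 peak, at chr3:127632586-127633106 (521 bp), ended 30 bp before it. The annotated body begins before that site, at 127632733, so both peaks overlapped the body. The Foxn4 peak lay wholly inside the Rfx3 peak and covered 55.3% of it, and their midpoints were 7 bp apart. The sequence above holds 112 bases of the Foxn4 peak and 221 of the Rfx3 peak, and the rest of both peaks lies upstream of it. The other Rfx3 peak, at chr3:127642331-127642667 (337 bp), lay 6695 bp beyond the 3' end of the gene and 9334 bp from the Foxn4 peak. No other protein-coding gene came closer than 14.6 kb to the peaks at the start site.

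Pou4f2 and Isl1, a POU factor and a LIM factor that act after Atoh7 in ganglion cell differentiation, had no peak of any list. Their bodies lie at chr8:78433009-78436647 and chr13:116298270-116309688. The nearest Foxn3, Foxn4 and Rfx3 peaks to Pou4f2 lay together, 219, 220 and 219 kb from it, at Ttc29. The nearest peak to Isl1 was from Foxn4, 99.9 kb from the gene, with Isl1 as its nearest protein-coding gene.

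Sharing between lists was seen at 1 of these loci, Neurog2. The 8 peaks formed 7 regions once overlapping peaks were merged. Of these, 4 held Foxn4 alone, 2 held Rfx3 alone and 1, at the start of Neurog2, held Foxn4 and Rfx3. Over the whole series 26.9% of 6155 regions held Foxn4 alone, 25.3% Rfx3 alone and 2.89% Foxn4 with Rfx3 but not Foxn3. Regions of 2 or more lists made up 43.1% of the series and 1 of the 7 here. With so few regions this difference was not tested. The combinations with Foxn3 were not seen at the fate genes, which follows from the lack of Foxn3 peaks there. In the series they made up 22.1% (Foxn3 with Rfx3), 14.2% (all 3 lists) and 3.83% (Foxn3 with Foxn4).

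The authors' score ranks a peak within its own list, and its scaling is not stated. Scores are given here as percentiles, with ties at their middle, and are not compared in size between lists. The Foxn4 peaks at Thrb and Neurog2 both stood at percentile 62.5, those at Otx2 and Atoh7 at 50.8, and that at Crx at 36.7. These are steps of a coarse scale: the 5 scores were 7, 8 or 9 times the smallest step of the list, the list's median was 8 times, and 392 other Foxn4 peaks shared the score of the Otx2 and Atoh7 peaks. The 5 Foxn4 peaks therefore sat in the middle of their list. The 3 Rfx3 peaks were spread widely. The peak at Nrl stood at percentile 75.4, the downstream peak at Neurog2 at 58.6, and the peak at the Neurog2 start site at 1.61. The only region shared by 2 lists thus contained one of the lowest-scoring Rfx3 peaks and a Foxn4 peak above the median.

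**Figure D2:**
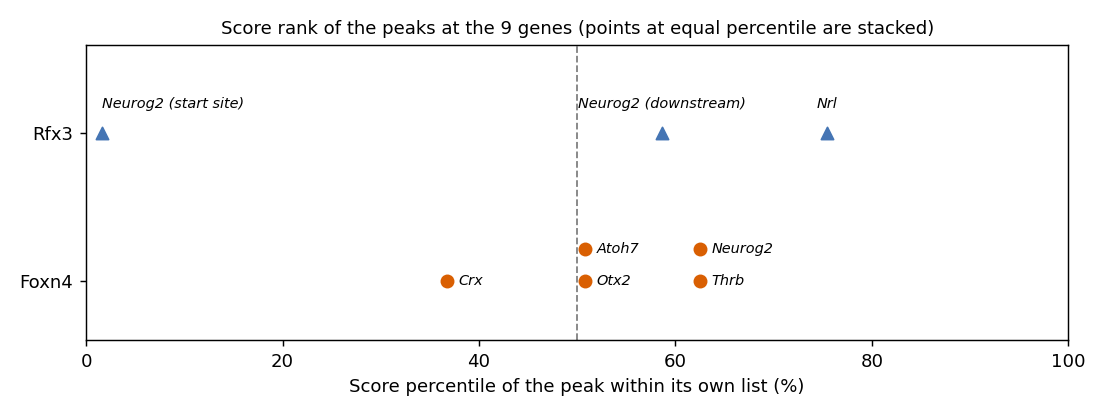
Score percentile of each of the 8 peaks within its own list (x axis, 0 to 100%), with Foxn4 peaks in the lower row and Rfx3 peaks in the upper row; the dashed line is the median of a list. Foxn4 peaks lie between 36.7 and 62.5, and Rfx3 peaks between 1.61 at the Neurog2 start site and 75.4 at Nrl.

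The distance to the nearest peak shows how far the loci without a peak were from one. For Foxn3 it ran from 75.4 kb at Atoh7 to 2260 kb at Otx2, with a median of 219 kb over the 9 genes and 192 kb over 21631 protein-coding genes on chromosomes with Foxn3 peaks. At Otx2, 94.1% of these genes had a nearer Foxn3 peak. For Foxn4 the median was 47.8 kb at the fate genes and 257 kb over all genes. For Rfx3 it was 199 kb at the fate genes and 138 kb over the 21631 genes on chromosomes with Rfx3 peaks. Prdm1 was far from all lists, with 856 kb to Foxn3, 1110 kb to Foxn4 and 997 kb to Rfx3; between 80.3% and 86.4% of genes had a nearer peak, depending on the list. The loci also hold few neighbours: a median of 1 other protein-coding gene reached into the window, from 0 at Otx2, Prdm1 and Isl1 to 5 at Nrl, against a median of 3 over all genes. Its part in the counts was not tested.

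Between the 50 kb limit and 100 kb from a fate gene lay 4 peaks. At Atoh7 these were a Foxn3 peak (chr10:63024084-63024412) and an Rfx3 peak (chr10:63023515-63024413), both 75.4 kb away, with midpoints inside Pbld2 and Hnrnph3. This Foxn3 peak lay wholly inside the Rfx3 peak, so both lists share the region. At Neurog2 it was a Foxn4 peak 79.2 kb away, inside Larp7, and at Isl1 the Foxn4 peak at 99.9 kb. The innermost of the excluded peaks was thus 75.4 kb away, and the outermost of those included was the Otx2 peak at 47.8 kb.

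**Figure D3:**
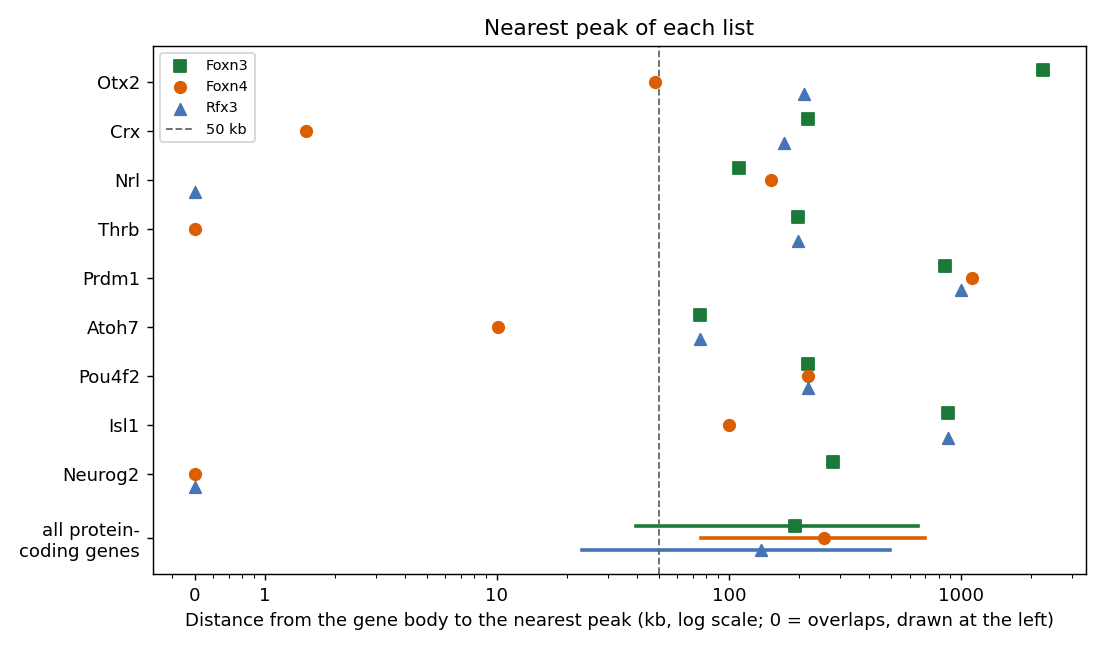
Distance from each gene body to the nearest Foxn3 (squares), Foxn4 (circles) and Rfx3 (triangles) peak, in kb on a log axis on which 0 is drawn at the left end. The bottom rows give the median (symbol) and quartiles (line) over all protein-coding genes, and the dashed line is the 50 kb limit, which no Foxn3 square falls inside.

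Numbers are absent from the Foxn3 list. Its peaks are numbered in order of position within each chromosome, up to 3645, and 851 numbers are absent. At 7 of the 9 genes the Foxn3 peaks on either side carry neighbouring numbers, so no numbered peak was removed between them. At the other two a number is absent: 2 between the peaks that flank Nrl, in an interval of 430 kb, and 1 between those that flank Neurog2, in an interval of 1020 kb. Of 15044 genes without a Foxn3 peak in the window and with one on either side, 45.3% had an absent number between the flanking peaks. Where in those intervals the removed peaks lay cannot be read from the list. The Foxn4 and Rfx3 lists lack no number.

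Within 1 kb of either annotated end of a gene, Foxn4 had a peak at 1 fate gene, Neurog2, with a background of 4.94% of all genes. Rfx3 had one at 2, Nrl and Neurog2, with a background of 11.0%. Foxn3 had none at the 9 genes, with a background of 9.02%. Within 5 kb, Foxn4 was found at 2, Crx and Neurog2 (background 6.69%), Rfx3 at the same 2 genes as within 1 kb (14.3%), and Foxn3 at 0 (11.7%). Strand was taken from the RefSeq promoter table, and when the end was replaced by a listed start site, Rfx3 remained at Neurog2 and was lost at Nrl, where the peak is at the 3' end. Over the 17492 protein-coding genes with a listed start, the share with a peak within 1 kb of one was 9.76% for Foxn3, 5.35% for Foxn4 and 11.7% for Rfx3.

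The promoter windows of the 9 genes were searched on both strands for short motifs. These were GTTGCC, which is only a part of the X-box, GTAAACA, a forkhead motif, and GACGC, a shorter motif known for FOXN proteins. No match of one motif overlapped a match of another at these genes, but listed windows of Otx2 overlap, so the same match can count in 2 windows. The Neurog2 window, which a Foxn4 and an Rfx3 peak reached in part, held none of them. It covers 112 bases of that Foxn4 peak (288 bp) and 221 of that Rfx3 peak (521 bp). The midpoints of both lie upstream of the window, and the rest of their sequence was not searched. GTTGCC was present in windows of Crx, Otx2 and Pou4f2 (4 of 13 windows, and 12.5% of 32851 windows over all genes). GTAAACA was present at Prdm1 (1 of 13, and 3.65% of all). GACGC was present at Atoh7, Isl1, Otx2, Pou4f2 and Thrb (7 of 13, and 27.2% of all). No peak reached any of these windows. The matches below are shown as examples of motifs at fate genes without a peak on the promoter, with the motif in capitals, in the gene's direction. Positions count from 0 at the listed start site. At Crx the match ran from -50 to -45, at Prdm1 from -231 to -225, at Atoh7 from -77 to -73, and at Otx2 from -44 to -39 of the start site at 48667508. The Otx2 sequence also begins with a GACGC match on the opposite strand, from -54 to -50, which is left in small letters.
Crx: gtcacctcctGTTGCCcagtgagtcc
Prdm1: cgtagtgtggGTAAACAtggagggcaa
Atoh7: ggagcggaggGACGCccgcccacct
Otx2: gcgtcaaaaaGTTGCCagagaggcgc

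Other genes of the same fates were examined from 2 lists. Among 25 other photoreceptor genes, a Foxn4 peak lay in the 50 kb window of 4 (16%, exact interval 4.54% to 36.1%), one of Foxn3 at 3 (12.0%, 2.55% to 31.2%) and one of Rfx3 at 7 (28.0%, 12.1% to 49.4%). Each interval holds the background of its factor. Rorb, an orphan nuclear receptor required for rods, had 2 Foxn4 peaks and none of the other lists, 1 of them (chr19:19111171-19111542, percentile 71.5) at its start site. Mef2d, a factor that works with Crx at photoreceptor genes, had a Foxn4 peak at its start site (chr3:88142156-88142444, percentile 10.3) and 1 Foxn3 and 2 Rfx3 peaks elsewhere in its window. Of the 25 genes, 17 had no peak of any list.

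Among 30 other ganglion cell genes, Foxn4 had a peak at 3 (10.0%, exact interval 2.11% to 26.5%), Foxn3 at 5 (16.7%, 5.64% to 34.7%) and Rfx3 at 8 (26.7%, 12.3% to 45.9%). These intervals hold the backgrounds too. Sox12, of the SoxC family, had Foxn3 and Rfx3 peaks together upstream of its start site (Foxn3 at chr2:152398664-152399051). Klf9 had a Foxn3 peak alone just upstream of its start (chr19:23140692-23141139, percentile 9.65), and Onecut2 an Rfx3 peak alone at a gene end (percentile 24.1). Elavl3, an RNA-binding protein of neurons, had a region of all 3 lists, but this lay inside Ccdc151.

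Progenitor and amacrine or horizontal cell genes were counted for comparison. Of 21 progenitor genes, 14 had a Foxn4 peak (66.7%, exact interval 43.0% to 85.4%), 14 an Rfx3 peak (66.7%, 43.0% to 85.4%) and 12 a Foxn3 peak (57.1%, 34.0% to 78.2%). Of 13 amacrine and horizontal cell genes, 4 had a Foxn4 peak (30.8%, 9.09% to 61.4%) and 2 each an Rfx3 and a Foxn3 peak (15.4%, 1.92% to 45.4%). The backgrounds over all genes were 19.9% for Foxn4, 33.0% for Rfx3 and 27.4% for Foxn3. The progenitor intervals lay above them, in a list chosen with earlier results of these data known. The amacrine and horizontal cell intervals held them. Peaks of all 3 lists in the window were seen at 10 progenitor genes and at 0 of the 9 fate genes, for which a share as high as 33.3% is still permitted. Over all genes this share was 12.5%, so the absence at 9 genes is near the background, and with a window of 100 kb Atoh7 had peaks of all 3 lists. Some of the 10 progenitor genes are neighbours whose windows hold the same peaks, so their counts and intervals are not independent. At others a region of all 3 lists lay inside another gene. The fate genes had a share of Foxn4 near that of the progenitor list and lower shares of Foxn3 and Rfx3, and the differences between these lists were not tested.

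**Figure D4:**
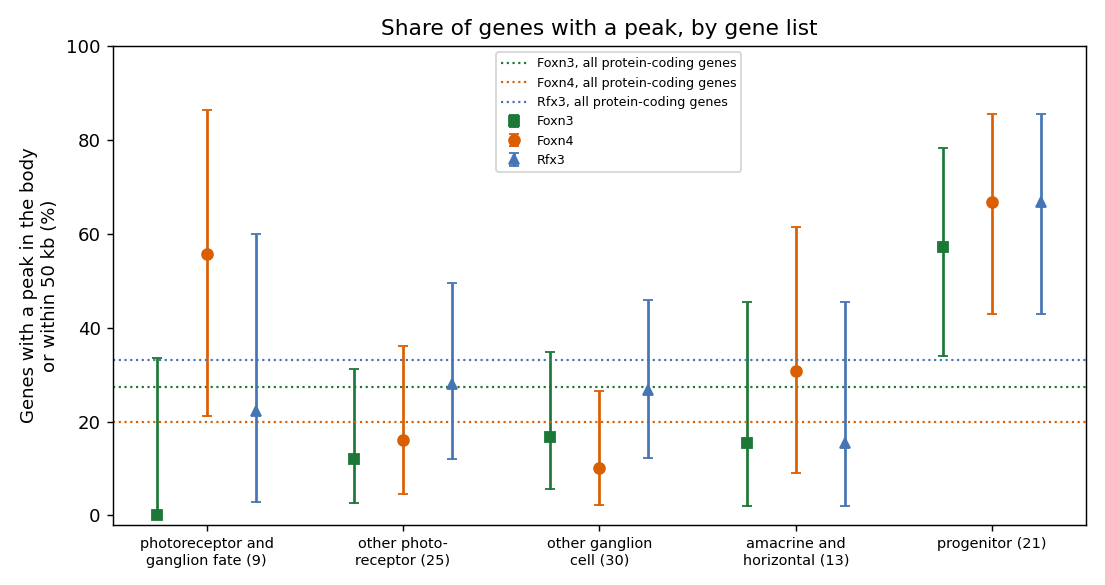
Share of genes (y axis, %) with a peak in the gene body or within 50 kb, for the 9 fate genes and 4 other lists, with exact 95% intervals that cover counting error only. Dotted lines give the share over all 21887 protein-coding genes, 27.4% for Foxn3, 19.9% for Foxn4 and 33.0% for Rfx3; the fate genes stand at 0, 55.6 and 22.2%.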

How the data were processed

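The files used were 3 peak lists in BED format, 1 per antibody, in mm10 coordinates per the file headers. The deposited score of each peak is the authors' value. Its scaling, the libraries pooled in a list and the use of IgG are not given in the sources used here. The submitters' processing notes name cutadapt, Bowtie2, UMI-tools, bedtools and SEACR, without role or version. Gene bodies and promoter windows came from RefSeq tables of GRCm38.p6, the same assembly; all 9 symbols matched, and listed promoters gave the strand. Genome sequence was not used here, so peak sequences are not shown.

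Positions were converted to count from 1. A peak belonged to a gene where it overlapped the body extended by 50 kb by at least 1 bp, and peaks overlapping by 1 bp were merged into regions. Percentiles rank scores within a list. Shares carry exact 95% intervals, and for a count of 0 the limit is 3 counts. Counting was done in Python 3.11.15 with pandas 2.3.3 and scipy 1.17.1 and tested on simulated positions. All 9 genes are named; of other lists, genes qualified where a peak reached 1 kb from either end or where a region held all 3 factors, up to 8 per list, and a few of them are described; 1 gene of these is not reported here. The members and lists were chosen with earlier results of these data known. Window, score, width, overlap and nearest-gene alternatives were tried.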

Additional observations from a re-analysis of the deposited data

How the results depend on the processing

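Counts of a few peaks shift with the window. The 0 Foxn3 peaks became 1 peak at 1 gene (Atoh7) with 100 kb; narrower windows and filters on peaks could only leave a count of 0. The 5 Foxn4 peaks at 5 genes fell to 3 at 3 genes with 10 kb. They fell to 2 at 2 genes where overlap with the gene body was required. Foxn4 within 5 kb of a gene end was found at 2 genes rather than 1. Rfx3 at gene ends was found at 1 gene rather than 2 with the higher-scoring peaks, and at 1 with listed start sites, an alternative chosen after seeing the data. Requiring a score at or above the list's median left 0 shared regions, because the Rfx3 peak at the Neurog2 start falls below it.

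For the other lists, alternatives chosen after seeing the data gave these counts of genes. With 10 kb, photoreceptor genes had 1 for Foxn3 and 3 for Rfx3, ganglion cell genes 3 for Foxn3, and amacrine and horizontal cell genes 1 for Foxn4. With peaks at or above the median score, photoreceptor genes had 1 for Foxn3 and 2 for Rfx3, ganglion cell genes 3 for Foxn3, 1 for Foxn4 and 4 for Rfx3, amacrine and horizontal cell genes 1 for each factor, and progenitor genes 8 for Rfx3. Of 64 alternative counts that could change, 41 stayed within 1.5 times the reported one; another 11 were counts of 0 that could only stay 0. Leaving out a replicate was not run, because each antibody has a single list. No paired analysis was possible because no test was made and the lists carry no replicate numbers.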
